A study of Mus musculus with 6 samples.

Results

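Procollagen chains are hydroxylated, folded and trimmed by a small set of dedicated proteins before they can form fibrils, and 10 genes encoding such proteins are described here. The set is defined by function and not by a threshold on measured values: the catalytic subunits of collagen prolyl 4-hydroxylase (P4ha1, P4ha2 and P4ha3), the prolyl 3-hydroxylase gene P3h1, the lysyl hydroxylase genes Plod1, Plod2 and Plod3, the collagen chaperone gene Serpinh1, the propeptide protease gene Bmp1 and the enhancer of that protease, Pcolce. Each symbol matched 1 of the 35688 gene rows of the deposited table, and 9 of the 10 had a mean of at least 1 TPM and were tested. The material was m1102, a cultured line of mouse ovarian surface epithelial cells. It was sampled as 3 libraries of cells given 10 ng/mL TGFB1 for 4 days and 3 libraries of untreated cells. Cells of both groups were grown in serum-containing medium supplemented with ITSS and EGF, no vehicle is named for the untreated cells, and the labels do not say whether the line is a clone. TGFB1 is a cytokine known for raising matrix production, and the title of the study concerns COX2 and the survival of these cells during wound repair after ovulation. The question here is which of these transcripts differed after TGFB1.

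As background, fibrillar procollagen is made in the endoplasmic reticulum. There prolyl 4-hydroxylase, a tetramer of P4HA and P4HB chains, hydroxylates prolines that the triple helix needs to be stable at body temperature. PLOD enzymes hydroxylate lysines that later carry sugars and crosslinks, and the SERPINH1 protein, also called HSP47, binds the folded helix. Outside the cell BMP1 removes the C-propeptide, a step that PCOLCE speeds up, and the trimmed molecules assemble into fibrils. The hydroxylases need oxygen, iron, 2-oxoglutarate and ascorbate.

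Abundances are given in TPM, the deposited values corrected for transcript length and depth, so levels of different genes may be set side by side. Folds are differences on the log2(TPM + 1) scale, TGFB1 minus untreated, from limma, and called genes are those with a p under 0.05 after adjustment over all tested rows. Read depth is unknown. Library totals ran from 983434 to 1026702, and TGFB1 replicate 1 lay furthest from the untreated libraries on the first principal component (46.6, against 18.1 and 20.2 for TGFB1 replicates 3 and 2 and -29.8 to -27.1 for the untreated libraries). Of 13 markers of ovarian surface epithelium and mesothelium, 10 passed the abundance filter, Krt8, Krt19 and Lhx9 did not, and 5 were called lower with TGFB1. Their summed level was 1171 to 1564 TPM in TGFB1 libraries and 2265 to 2410 TPM in untreated libraries. Summed markers of fibroblasts and stroma, a list that includes Col3a1 and Dcn, ran from 1102 to 1175 TPM with TGFB1 and from 1941 to 2080 TPM without. In that list Dcn (616 TPM with TGFB1, 1362 TPM without) and Thy1 (90.9 TPM with TGFB1, 288 TPM without) were called lower. Col3a1 (424 and 345 TPM) and Pdgfra (7.65 and 6.34 TPM) had higher means with TGFB1 and were not called. Pdgfrb, Lum and Tcf21 did not pass the filter. Leukocyte markers, nearly all Cd68 with Ptprc near 0, summed to 7.91 to 10.9 TPM in TGFB1 libraries and 18.7 to 26.8 TPM in untreated ones, and endothelial markers to 1.74 to 2.30 TPM with TGFB1 and 1.07 to 1.27 TPM without. Granulosa markers, with Fshr at 0, summed to 30.9 to 34.1 TPM with TGFB1 and 33.8 to 37.9 TPM without. Theca markers, nearly all Star with Lhcgr at 0, summed to 79.8 to 182 TPM with TGFB1 and 280 to 326 TPM without, and smooth muscle markers, mostly Smtn, to 52.5 to 62.5 TPM with TGFB1 and 71.3 to 79.5 TPM without. Among the smooth muscle markers Smtn was called lower and Cnn1 higher (5.90 ± 3.26 TPM with TGFB1 and 1.26 ± 0.728 TPM without), and of the granulosa markers Foxl2 was called higher and Inha lower. The part that these differences have in the results was not tested. In bulk RNA, fewer cells of a type and less RNA per cell cannot be told apart.

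After TGFB1, 6 of the 9 tested genes rose (P3h1, Plod1, Plod2, Plod3, Serpinh1 and Bmp1), Pcolce fell, and P4ha1 and P4ha2 were not called. Among all 12257 tested rows, 30.4% were called, 15.8% higher and 14.6% lower. Of those calls 52.0% were higher, against 62.7% when the libraries were rescaled without mitochondrial genes and the 20 most abundant genes, 47.3% with median-of-ratios scaling and 49.9% with quantile normalization. The median fold of the 9 was 0.58, and that of all tested rows was 0.02. For 7 of the 9 the treated and untreated values were fully separate, as they were for 49.8% of all tested rows. The 6 that rose were highest in TGFB1 replicate 1 and lowest among treated libraries in TGFB1 replicate 3, each of the 6 times. Without TGFB1 replicate 1 the counts were again 6 higher and 1 lower, and over the alternatives run 5 or 6 were higher, since the Plod3 call was lost in some. Summed over the 10 genes, the level was 2776 ± 253 TPM with TGFB1 and 2352 ± 47.5 TPM without (mean ± SD, n = 3 per group here and below).

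**Figure D1:**
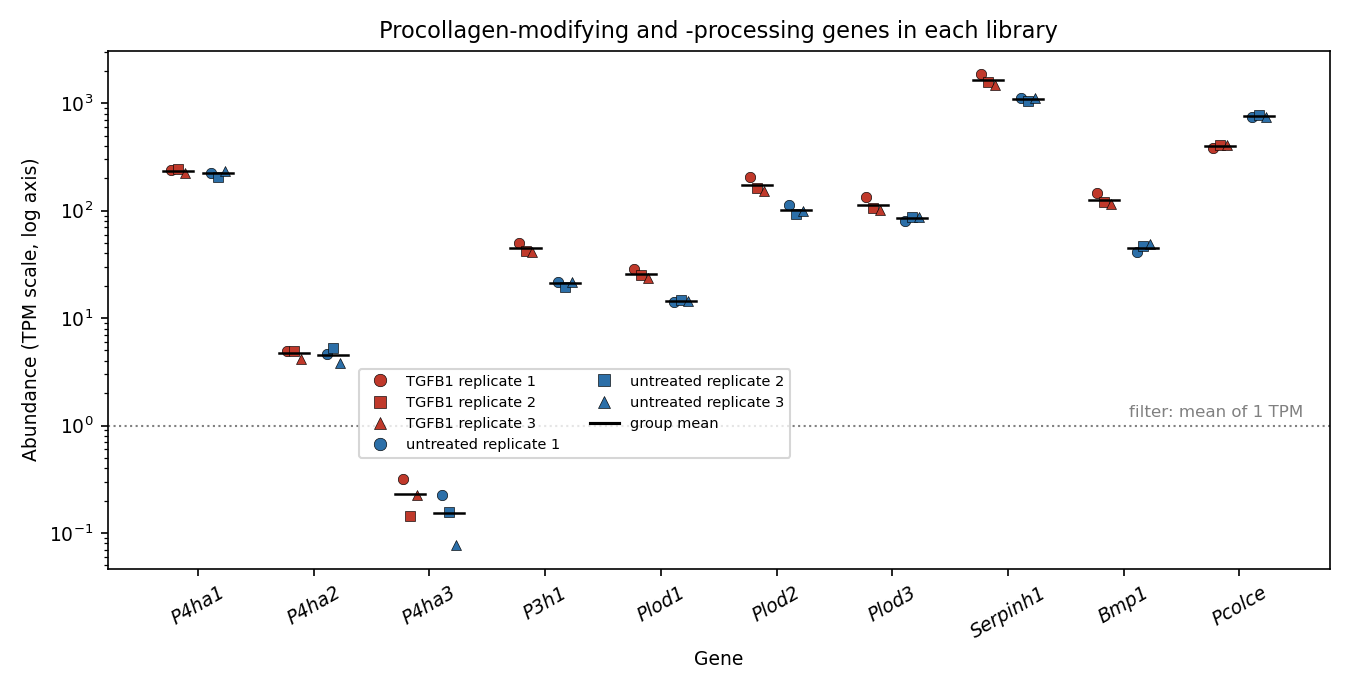
Abundance of each of the 10 genes on a log axis (TPM scale); each point is a library, its shape the replicate number, and each bar a group mean. TGFB1 points stand above the untreated ones for P3h1, the Plod genes, Serpinh1 and Bmp1 and below them for Pcolce, while those of the P4ha genes overlap, and P4ha3 lies under the filter of 1 TPM.

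RefSeq promoter windows (GRCm38.p6) were found for 8 of the 10 genes. The 250 bases before the annotated start are shown for 5 of them, chosen after their values were seen to give a chaperone, a prolyl 3-hydroxylase and a lysyl hydroxylase gene that rose, the enhancer gene that fell, and a prolyl 4-hydroxylase gene that was not called. Each is read 5′ to 3′ on the gene's strand. Capitals mark matches, on either strand, to CAGAC (a SMAD box, the element bound by the transcription factors of TGFB signalling), ACGTG (the core of the hypoxia response element), GGGCGG (a GC box) and GAANNTTC (the core of a heat shock element).

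Serpinh1 (chr7:99353240-99353489, minus strand): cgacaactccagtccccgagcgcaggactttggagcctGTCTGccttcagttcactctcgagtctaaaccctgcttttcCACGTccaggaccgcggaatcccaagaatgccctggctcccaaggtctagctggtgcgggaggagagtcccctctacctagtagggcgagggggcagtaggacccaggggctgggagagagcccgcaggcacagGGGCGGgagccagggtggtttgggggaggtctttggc
P3h1 (chr4:119232665-119232914, plus strand): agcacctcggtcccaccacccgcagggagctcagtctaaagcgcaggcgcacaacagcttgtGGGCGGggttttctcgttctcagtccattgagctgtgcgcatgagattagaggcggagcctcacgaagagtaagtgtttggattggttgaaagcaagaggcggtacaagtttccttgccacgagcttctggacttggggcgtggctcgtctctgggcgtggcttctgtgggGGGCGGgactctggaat
Plod1 (chr4:147936777-147937026, minus strand): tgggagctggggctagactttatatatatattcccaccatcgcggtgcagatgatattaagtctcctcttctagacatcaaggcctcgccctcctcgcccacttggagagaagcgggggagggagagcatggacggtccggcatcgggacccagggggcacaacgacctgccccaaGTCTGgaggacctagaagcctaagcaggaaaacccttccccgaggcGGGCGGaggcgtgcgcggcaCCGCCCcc
Pcolce (chr5:137611405-137611654, minus strand): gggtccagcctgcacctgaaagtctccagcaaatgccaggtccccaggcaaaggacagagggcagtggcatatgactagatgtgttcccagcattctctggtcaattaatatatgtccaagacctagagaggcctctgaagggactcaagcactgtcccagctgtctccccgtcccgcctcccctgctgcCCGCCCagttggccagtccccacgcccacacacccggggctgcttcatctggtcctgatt
P4ha1 (chr10:59323046-59323295, plus strand): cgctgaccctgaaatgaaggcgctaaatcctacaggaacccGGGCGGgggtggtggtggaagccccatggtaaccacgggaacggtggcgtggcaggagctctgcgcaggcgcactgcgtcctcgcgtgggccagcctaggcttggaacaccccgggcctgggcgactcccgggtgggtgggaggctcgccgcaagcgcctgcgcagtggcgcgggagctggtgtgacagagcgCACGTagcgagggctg

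The SMAD box letters occurred 1 time in the Serpinh1 window, beginning 212 bases before the start, and 1 time in that of Plod1, 74 bases before it. They were absent from the other 6 windows, and 42.2% of the 32851 mouse promoter windows of the same length hold them. The ACGTG form of the hypoxia core occurred 1 time each in the windows of P4ha1, P4ha2, Plod3 and Serpinh1, against 16.6% of all windows. Matches to the GCGTG form were not counted, so a window without ACGTG may still hold the core. GC boxes occurred in 7 of the 8 windows, all but that of Plod3, against 32.7% of all windows. P4ha3 had 5 overlapping or neighbouring matches. The GC content of the 8 windows ran from 55.6% (Plod3) to 70.0% (P4ha2). The part of base composition in these counts was not tested. No heat shock core was found in the 8 windows, and 6.69% of all windows hold one. No match to one of these motifs overlapped a match to another. The windows of Pcolce and P4ha2 belong to RefSeq starts that lie 2380 and 829 bases inside the outermost starts that GENCODE gives. These matches describe letters in a short window and say nothing of binding.

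Prolyl 4-hydroxylase subunits carried the first result: the main catalytic subunit gene was abundant and did not pass the test. P4ha1 (chromosome 10, 59323296 to 59373304, plus strand; GRCm38, GENCODE M21, like all gene coordinates here) had 240.0, 242.6 and 226.5 TPM in the TGFB1 libraries, against 226.4, 206.1 and 234.6 TPM in the untreated ones. The groups overlapped, and untreated replicate 3 was above TGFB1 replicate 3. The fold was 0.09 (SE 0.066, 95% interval -0.07 to 0.25, adjusted p = 0.347), so a rise larger than 0.25 on the log2 scale lay outside the interval.

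P4ha2, whose protein is an alternative catalytic subunit, had 4.997, 4.92 and 4.19 TPM in TGFB1 libraries and 4.61, 5.27 and 3.81 TPM in untreated libraries (chromosome 11, 54100095 to 54131665, plus strand). The highest of the 6 values was an untreated library and the lowest was too. Its fold was 0.04 with a wider interval, -0.27 to 0.35 (SE 0.132, adjusted p = 0.841), and its sign was not stable across alternatives (-0.06 to 0.13). P4ha3 (chromosome 7, 100285520 to 100319699, plus strand) was under the filter, at 0.317, 0.144 and 0.223 TPM with TGFB1 and 0.228, 0.158 and 0.0773 TPM in untreated cells. With no filter on abundance it was not called (adjusted p = 0.535).

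P4ha1 therefore made up nearly all of the family's transcripts in both groups, 98.0 ± 0.128% of the summed TPM with TGFB1 and 97.9 ± 0.469% in untreated cells. The P4ha2 share was 1.95 ± 0.117% with TGFB1 and 2.03 ± 0.449% without. Summed over the 3 subunits the level was 241 ± 9.08 TPM in TGFB1 libraries and 227 ± 14.0 TPM in untreated libraries. Their partner P4hb, which encodes the beta chain and also acts as a general disulfide isomerase, rose to 643 ± 74.0 TPM, against 472 ± 9.65 TPM in untreated cells (fold 0.44, SE 0.084, adjusted p = 0.0101). The ratio of P4hb to the summed P4ha transcripts was 2.97, 2.42 and 2.61 in the TGFB1 libraries, against 2.02, 2.20 and 2.03 in the untreated ones. The 3 treated ratios lay above the 3 untreated ratios, a difference that was not tested.

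P3h1 hydroxylates prolines at the 3 position in a complex with CRTAP and cyclophilin B, the product of Ppib. It had 50.5, 42.04 and 41.6 TPM in TGFB1 libraries, against 21.9, 19.6 and 21.7 TPM in untreated libraries (chromosome 4, 119232915 to 119248975, plus strand). The lowest treated value was well above the highest untreated one, and the means stood in a ratio of 2.13. The fold was 1.05 (SE 0.094, adjusted p = 0.000831) and ran from 0.93 to 1.10 across the alternatives.

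The other proteins of that complex did not pass the test. Crtap was at 117 ± 5.17 TPM with TGFB1 and 121 ± 4.71 TPM without (fold -0.05, adjusted p = 0.557), and Ppib was at 564 ± 19.2 TPM with TGFB1 and 567 ± 5.68 TPM without (fold -0.01, adjusted p = 0.918), where the Ppib value is uncertain because 37.0% of its 31-base words also occur in other genes. P3h1 transcripts were thus fewer than those of Crtap in every library, with a ratio of 0.450, 0.362 and 0.340 in the TGFB1 libraries, against 0.173, 0.164 and 0.185 in the untreated ones. The relatives P3h3 and P3h4, named after their values were seen, rose as well, with folds of 0.62 (adjusted p = 0.00121) and 0.38 (adjusted p = 0.0067). P3h2 was under the filter.

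**Figure D2:**
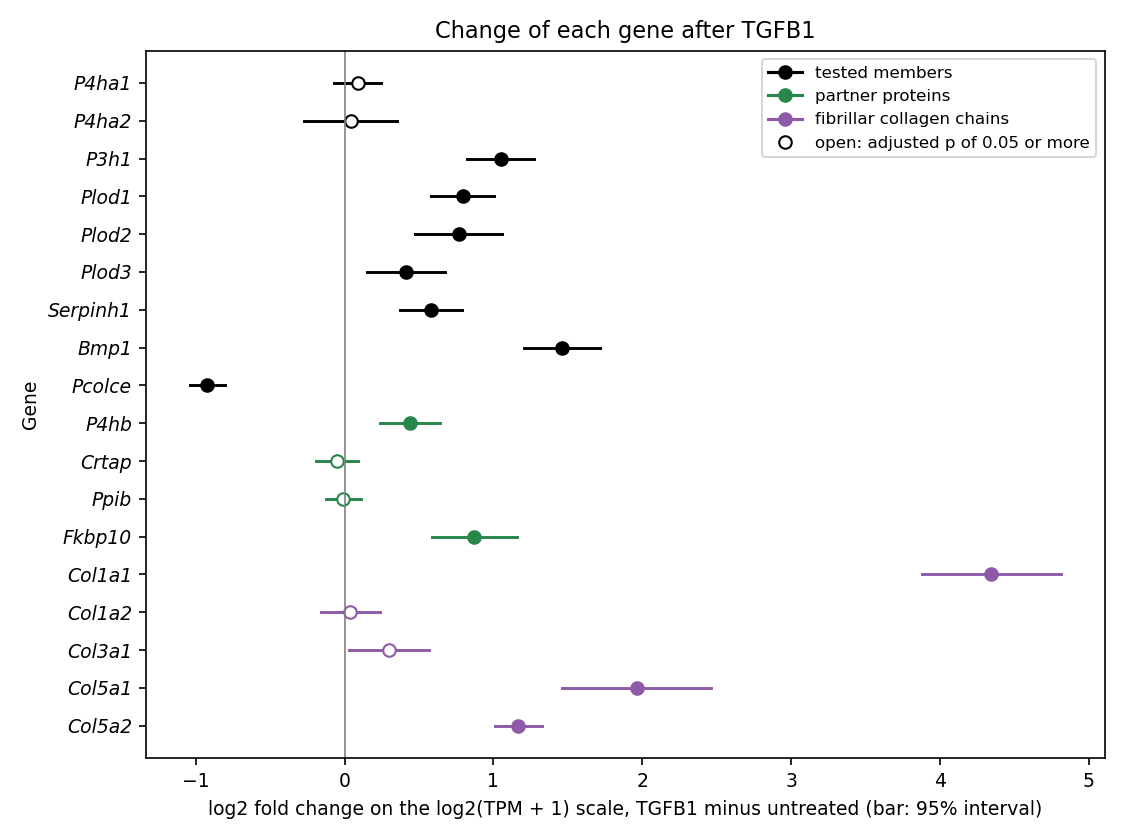
Log2 fold change (x axis, TGFB1 minus untreated, log2(TPM + 1) scale) of the 9 tested members, 4 partner genes and 5 fibrillar collagen chain genes; bars are 95% intervals from limma and open circles were not called. Intervals of P4ha1, P4ha2, Crtap, Ppib and Col1a2 span 0, that of Pcolce lies below it, and Col1a1 stands furthest out at 4.35.

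The 3 lysyl hydroxylase genes rose. Plod1, whose enzyme acts on lysines of the helix, is on chromosome 4 (147909753 to 147936767, minus strand) and had 28.9, 25.3 and 23.4 TPM with TGFB1, against 14.2, 14.8 and 14.4 TPM without. The treated libraries were apart from the untreated ones, which lay within 0.625 TPM of each other. Its fold was 0.79 (SE 0.089, adjusted p = 0.00161).

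Plod2 encodes the enzyme that hydroxylates lysines of the telopeptides, the short ends where crosslinks begin. Its values were 205.5, 163.3 and 154.0 TPM in TGFB1 libraries, against 112.4, 92.9 and 99.2 TPM in untreated libraries (chromosome 9, 92542223 to 92608428, plus strand). TGFB1 replicate 1 was the highest by 42.2 TPM, and the other treated libraries were also above all untreated ones. The fold was 0.77 (SE 0.123, adjusted p = 0.00552), and 0.64 without TGFB1 replicate 1. Of its exonic bases, 6.42% lie opposite the unclassified transcript Gm38391. Fkbp10, whose protein is a peptidyl-prolyl isomerase that PLOD2 needs for activity, rose by 0.87 (SE 0.120, adjusted p = 0.00325), to 310 ± 54.2 TPM with TGFB1, against 168 ± 8.83 TPM without.

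Plod3, whose protein also transfers sugars to hydroxylysine, is on chromosome 5 (136987019 to 136996648, plus strand). It had 134.0, 105.7 and 101.7 TPM with TGFB1, against 79.8, 87.1 and 87.4 TPM without, so the groups were apart, by 14.2 TPM at the closest. Its fold was 0.41 (SE 0.111, adjusted p = 0.0319), and the call was lost without TGFB1 replicate 2 or without any single untreated library (adjusted p = 0.0523 to 0.0998) and with no filter (adjusted p = 0.0736). Of its exonic bases, 11.7% lie opposite exons of Znhit1, and strand use in the counting is not stated. Znhit1 was itself called lower, at 76.7 ± 3.28 TPM with TGFB1 and 92.2 ± 4.40 TPM without (fold -0.26, adjusted p = 0.0224). Colgalt1, named after its values were seen, encodes a galactosyltransferase that acts on hydroxylysine and rose by 0.62 (adjusted p = 0.00178), while Colgalt2 was near 0.

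Summed over the 3 Plod genes, the level was 314 ± 47.8 TPM with TGFB1, against 201 ± 5.80 TPM in untreated cells. Plod2 made up 55.8%, 55.5% and 55.2% of that sum in TGFB1 libraries, against 54.5%, 47.7% and 49.4% in untreated libraries. The share of Plod3 was 36.2 ± 0.279% with TGFB1 and 42.3 ± 3.21% without, and that of Plod1 was 8.29 ± 0.388% with TGFB1 and 7.21 ± 0.370% without. The treated Plod2 shares lay above the untreated ones by as little as 0.712 percentage points, and the shares were not tested.

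**Figure D3:**
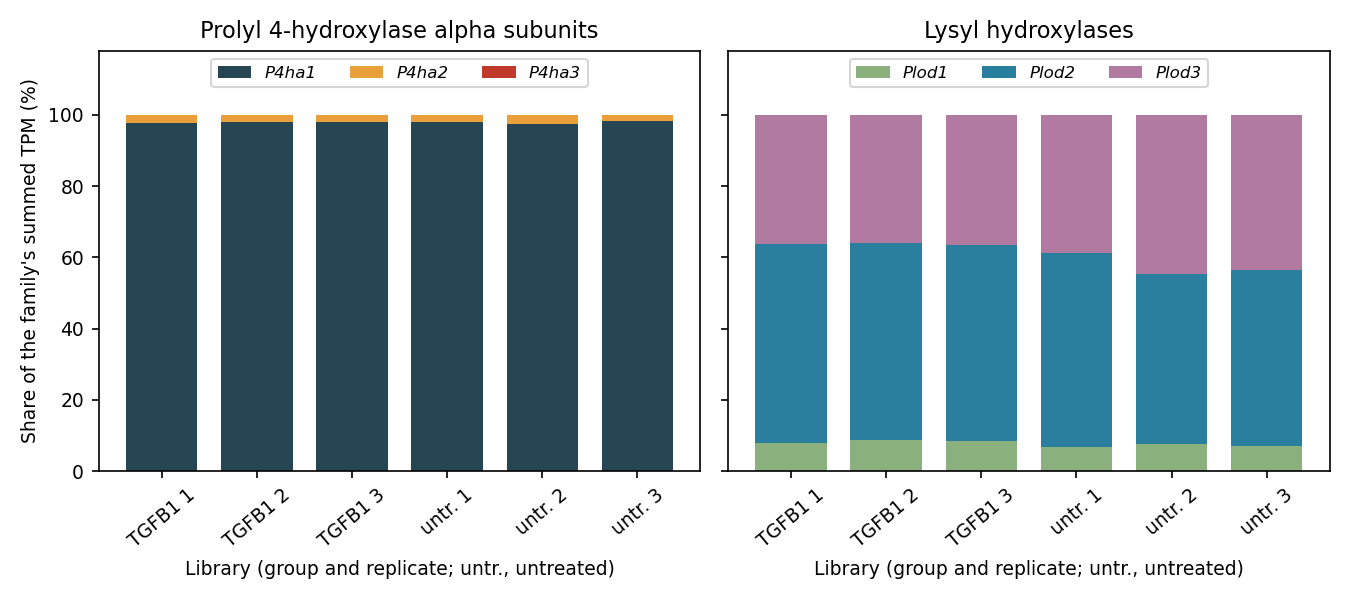
Share of each family's summed TPM (y axis, percent) in each library (x axis), for the prolyl 4-hydroxylase subunit genes on the left and the lysyl hydroxylase genes on the right. P4ha1 fills 97.4% to 98.4% of each left-hand bar, and on the right Plod2 holds 55.2% to 55.8% in TGFB1 libraries and 47.7% to 54.5% in untreated ones.

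Serpinh1, the chaperone gene, was the most abundant of the 10 genes in both groups, above 99.4% of tested rows in treated cells and above 98.8% in untreated ones. It had 1862.4, 1589.2 and 1494.5 TPM in TGFB1 libraries, against 1130.5, 1052.1 and 1113.5 TPM in untreated libraries (chromosome 7, 99345376 to 99353239, minus strand). The treated libraries differed by 368 TPM at most, the untreated ones by 78.4 TPM, and the groups were apart. Its fold was 0.58 (SE 0.087, adjusted p = 0.00441), and 0.49 without TGFB1 replicate 1.

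Serpinh1 was also set against transcripts of some of its clients. Col1a1, Col1a2, Col3a1, Col5a1 and Col5a2, 5 chain genes of the fibrillar types I, III and V, summed to 1889 ± 101 TPM with TGFB1 and 1002 ± 29.6 TPM without. The type V gene Col5a3, under the filter, is not in that sum. Nor are the type IV genes Col4a1 (2281 ± 263 TPM with TGFB1, 1615 ± 124 TPM without) and Col4a2 (1275 ± 135 TPM with TGFB1, 938 ± 81.5 TPM without). Both were more abundant than any of the 5 chains, so the ratio that follows holds for the 5 fibrillar chains only. The ratio of Serpinh1 to that sum was 0.929, 0.859 and 0.825 in TGFB1 libraries, against 1.09, 1.06 and 1.14 in untreated ones, with no overlap and no test. Within the sum Col5a2 was the largest part, at 1127 ± 84.5 TPM with TGFB1 and 501 ± 14.6 TPM without. Col1a1, the alpha-1 chain gene of type I collagen, stood at 161 ± 49.8 TPM with TGFB1 and 6.74 ± 0.517 TPM without, and Col1a2, which encodes its partner chain, at 145 ± 2.55 TPM with TGFB1 and 142 ± 15.4 TPM without (fold 0.04, adjusted p = 0.744).

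The propeptide step held the largest rise among the 10 genes and also the fall. Bmp1 (chromosome 14, 70474558 to 70520234, minus strand) had 145.3, 119.8 and 116.4 TPM in TGFB1 libraries, against 41.0, 46.6 and 48.8 TPM in untreated libraries. Each treated value was more than the sum of any 2 untreated values. The fold was 1.46 (SE 0.107, adjusted p = 0.000422) and ran from 1.36 to 1.52 across the alternatives.

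Pcolce (chromosome 5, 137605103 to 137613784, minus strand) had 386.3, 409.5 and 406.0 TPM in TGFB1 libraries, against 752.8, 773.1 and 752.0 TPM in untreated libraries. Both groups were tight, with an SD of 12.5 TPM with TGFB1 and 11.9 TPM without, and far apart. TGFB1 replicate 1, highest of the treated libraries for the 6 genes that rose, was lowest for Pcolce. The fold was -0.92 (SE 0.049, adjusted p = 0.000152), between -0.94 and -0.84 across the alternatives. Exons of Fbxo24, on the same strand, and of the antisense gene Gm36266 each share 2.93% of the exonic bases of Pcolce.

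Pcolce still exceeded Bmp1 in every library. The ratio of Pcolce to Bmp1 was 2.66, 3.42 and 3.49 with TGFB1, against 18.4, 16.6 and 15.4 without, so the treated and untreated ratios were widely separated. Taken as Bmp1 over Pcolce the mean was 0.319 ± 0.05003 in TGFB1 libraries and 0.0599 ± 0.00522 in untreated libraries, a description with no test, since the pair was chosen with its values known. The Pcolce relative Pcolce2 and the Bmp1 relatives Tll1 and Tll2 were at or near 0 in both groups.

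**Figure D4:**
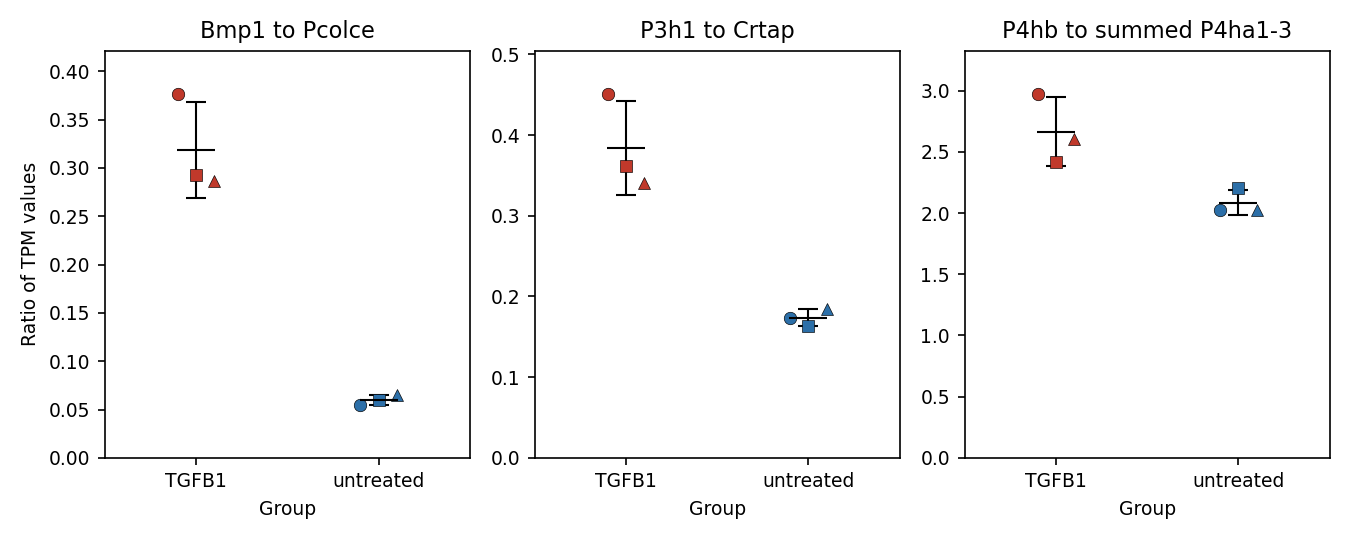
Ratio of TPM values within each library (y axes start at 0) for Bmp1 to Pcolce, P3h1 to Crtap, and P4hb to the summed P4ha genes; points are libraries, with the group mean and SD. In each panel the 3 TGFB1 ratios lie above the 3 untreated ones, from 0.287 to 0.376 against 0.0544 to 0.0649 for Bmp1 to Pcolce.

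The wider pathway was counted in lists that were written with earlier results of these data known. The counts of each list stand beside 15.8% of all tested rows called higher and 14.6% called lower. Of 16 listed hydroxylation and folding partners 14 were tested, of which 9 rose, 1 fell and 4 were not called, with a median fold of 0.51. Besides Fkbp10, the isomerase genes Fkbp14 (fold 0.76, adjusted p = 0.00756) and Fkbp9 (0.75, adjusted p = 0.000396) rose. Tmem38b, which encodes a cation channel of the endoplasmic reticulum, fell (-0.68, adjusted p = 0.0472), a call lost under 7 of 16 alternatives, among them no filter, no intensity trend and the rescaling without abundant genes.

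Of 12 tested genes of procollagen export, 6 rose and none fell (median fold 0.32). The coat gene Sec23a, which acts in vesicles leaving the endoplasmic reticulum, rose to 60.9 ± 8.63 TPM, against 34.5 ± 2.80 TPM in untreated cells (fold 0.79, adjusted p = 0.00351), and Trappc2 rose by 0.60 (adjusted p = 0.00234). Kdelr3, a receptor gene that returns escaped proteins to the endoplasmic reticulum, was low but rose, to 3.54 ± 1.97 TPM with TGFB1, against 0.454 ± 0.261 TPM without (fold 1.58, adjusted p = 0.0114). Kdelr3 passed the filter only through the TGFB1 libraries. Kdelr2 rose by 0.45 (adjusted p = 0.0329), a call lost with no filter or without any single untreated library. Sec13 and Sar1a, coat and coat-recruiting genes, were not called (folds of 0.16 and 0.05).

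A list of other propeptide and BMP1-family processing genes held proteases and also Pcolce2 and Sfrp2, and 6 of its 13 genes passed the filter, of which 1 rose and 2 fell. The proprotein convertase gene Furin rose by 0.64 (adjusted p = 0.0174), a call lost without untreated replicate 1 or 3. Pcsk5 fell (-0.53, adjusted p = 0.0182), a call lost with no filter and without untreated replicate 2 or 3. Adamts3, a procollagen N-propeptide protease gene, fell to 1.78 ± 0.284 TPM with TGFB1, against 3.87 ± 0.409 TPM without (-0.81, adjusted p = 0.00614), and Adamts2, of the same kind and named after its values were seen, was not called (fold -0.24, adjusted p = 0.500). Pcsk6 and Pcsk7 were not called either (folds of -0.21 and 0.07). Without untreated replicate 3 the list held 1 call, a fall.

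Of 15 tested collagen chain genes 8 rose, 1 fell and 6 were not called (median fold 0.44). Among the 8, Col4a4, named after its values were seen, passed the filter only through the TGFB1 libraries (3.65 ± 0.586 TPM, against 0.557 ± 0.0484 TPM without TGFB1). The calls with the largest folds were Col1a1 (4.35, adjusted p = 0.00011), the basement membrane gene Col4a3 (2.01, adjusted p = 0.000298), Col5a1 (1.96, adjusted p = 0.00143) and, downward, Col6a1 (-2.65, adjusted p = 0.00946, and -2.02 without TGFB1 replicate 1). Col5a2 rose by 1.17 (adjusted p = 0.0002). Col3a1 was at 424 ± 45.8 TPM with TGFB1 and 345 ± 43.2 TPM without and was not called (fold 0.30, adjusted p = 0.0898), except without TGFB1 replicate 1 or without untreated replicate 1.

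Other substrates of the BMP1 protease included 7 of 11 tested genes that rose and 2 that fell (median fold 0.79). Lox, the crosslinking oxidase that BMP1 activates, had the largest fold of the list (2.95, adjusted p = 0.000362). It was followed by the latent TGFB binding protein gene Ltbp1 (1.86, adjusted p = 0.00143) and the fibrillin gene Fbn1 (1.38, adjusted p = 0.00502). Fbn1 was at 2.45 ± 0.910 TPM with TGFB1 and 0.294 ± 0.108 TPM without, and passed the filter only through the TGFB1 libraries. Of its 31-base words 19.9% occur in other genes. Decorin, Dcn, a small proteoglycan gene, fell to 616 ± 28.0 TPM, against 1362 ± 112 TPM in untreated cells (-1.14, adjusted p = 0.000298). The other fall was that of Ogn, the gene of the proteoglycan osteoglycin, named after its values were seen (-0.97, adjusted p = 0.0177). Chrd, whose product binds and blocks BMP ligands, was not called (fold 0.15).

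Among other hydroxylases with the same cofactors 2 of 9 tested genes rose and 1 fell, with a median fold of 0.03. That share of calls is near the 30.4% of all tested rows that were called. Egln3 (0.63, adjusted p = 0.0398) and Asph (0.36, adjusted p = 0.0177, lost without untreated replicate 1 or 3) rose and Egln2 fell (-0.33, adjusted p = 0.00693). Egln3 was at 1.42 ± 0.194 TPM with TGFB1 and 0.578 ± 0.258 TPM without, so it passed the filter only through the TGFB1 libraries. Egln1 and Jmjd6 were not called (folds of -0.05 and 0.28), though Jmjd6 was called with a replicate block (adjusted p = 0.0333). Without untreated replicate 1 or 3 the list held 1 call, a fall, and the Egln3 call was lost under 9 of 14 alternatives, each library left out among them (adjusted p up to 0.116).

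Several P4ha and Plod genes are known targets of hypoxia signalling, and a list of hypoxia response genes was counted beside them. Of 14 tested genes none rose and 5 fell (median fold -0.18), where 15.8% of all tested rows were called higher and 14.6% lower. Ndrg1, a stress-responsive gene, fell by 1.001 (adjusted p = 0.00225) and the glycolysis genes Hk2 and Aldoa by 0.66 (adjusted p = 0.00177) and 0.48 (adjusted p = 0.0015). Ldha fell by 0.30 (adjusted p = 0.0389), a call lost under 8 of 16 alternatives, and its values, like those of Pgk1 and Eno1, are uncertain, with 19.6%, 54.7% and 28.5% of 31-base words in other genes. Pgk1 (fold -0.03) was not called, and Eno1 (0.43) was not called in the values as deposited. Eno1 was called under quantile normalization, after rescaling, with a replicate block, and without TGFB1 replicate 3. The other fall was that of the histone demethylase gene Kdm3a, named after its values were seen (-0.28, adjusted p = 0.0388). With no filter, with no trend, or without TGFB1 replicate 2 or untreated replicate 1 or 3, 3 genes of the list were called.

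General chaperones of the endoplasmic reticulum were counted because the hydroxylases and Serpinh1 work in that compartment. Of 16 tested genes 11 rose and 1 fell, with a median fold of 0.40, against 0.58 for the 9 members. Hyou1 (0.97, adjusted p = 0.00101), Hsp90b1 (0.71, adjusted p = 0.000291) and Dnajb11 (0.61, adjusted p = 0.00329), chaperones and a co-chaperone, had the largest rises. The stress transcription factor gene Ddit3 fell to 62.8 ± 3.38 TPM, against 126 ± 19.6 TPM in untreated cells (-0.98, adjusted p = 0.00196). Atf4 and Xbp1, other stress transcription factor genes, were not called (folds of -0.09 and 0.10).

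**Figure D5:**
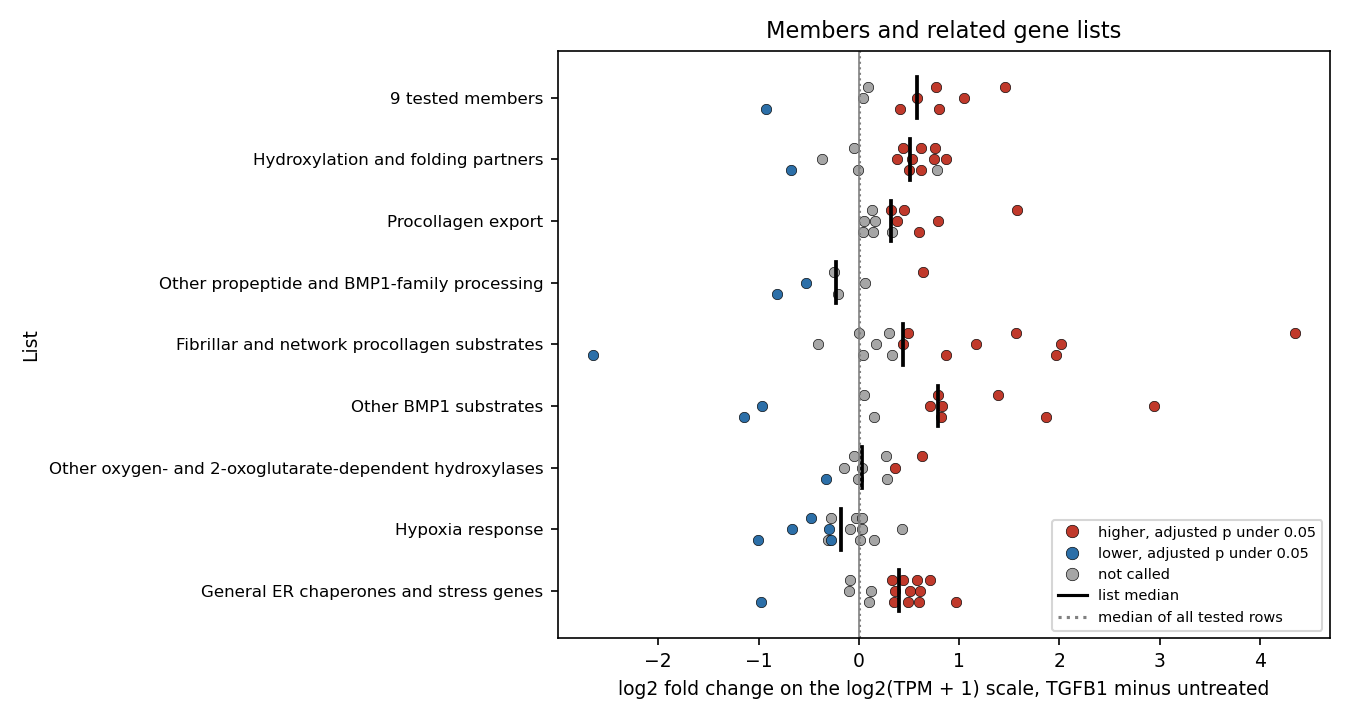
Log2 fold change (x axis, TGFB1 minus untreated) of each tested gene in the 9 tested members and 8 related lists; red points were called higher, blue lower and grey not called, and black bars are list medians. Medians run from -0.23 for other propeptide processing and -0.18 for hypoxia response to 0.79 for other BMP1 substrates, with 0.58 for the members and 0.02 for all tested rows.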

How the data were processed

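Poly(A)-selected RNA of 3 TGFB1 and 3 untreated samples was sequenced from 250 ng of total RNA each with a strand-marking kit, per the labels' protocols. Kallisto 0.44.0, sleuth 0.30.0 and the build GRCm38 stand in the submitters' processing notes, with no role given; annotation, strand use and the summing over transcripts are not stated there. The deposited values are a TPM-scale signal per gene; how the authors scaled them between libraries is not stated, and column totals differ. They hold no counts, so no counting interval can be given.

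Rows with a mean of at least 1 TPM (12257) were put on the scale log2(TPM + 1), and limma 3.58.1 was run on them under R 4.3.3 (lmFit, eBayes with an intensity trend). Tests are two-sided and Benjamini-Hochberg adjusted over all tested rows. Where a symbol repeated, the row with the highest mean was used. The steps were tested on simulated data. Genes named are all 10 members, P4hb, Crtap, Ppib, Fkbp10 and 5 fibrillar chain genes, and from each list up to 4 called genes with the largest fold and up to 2 not called with the highest mean; others were named after their values were seen, and a gene that the rule names is not reported here. Members and lists were chosen with earlier results of these data known. The labels do not say that samples came from separate cultures, so the spread behind each p-value is that between samples and could be technical. Shares of 31-base words found in other genes come from GENCODE M21 transcripts (Python 3.11.15). Those of the members were at most 12.0% (Plod3). Among the list genes named without their share, Asph had 14.4%, Aldoa 13.5%, Trappc2 13.2% and Hsp90b1 12.3%. The values of these genes are also less certain. Alternatives were other pseudocounts, filters and scalings, a replicate block, removal of repeated rows, no trend, and leaving out each library.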

Additional observations from a re-analysis of the deposited data

How the results depend on the processing

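Of the 9 tested members, 8 kept their call or lack of one under every alternative run, and Plod3 did not. The Plod3 call was lost with no filter (fold 0.41, adjusted p = 0.0736), with a replicate block (fold 0.41, adjusted p = 0.0517), and without TGFB1 replicate 2 or any single untreated library; its fold ran from 0.29 to 0.49 over the libraries left out. Members called higher numbered 5 or 6 and members called lower 1 in each alternative. Over all rows, leaving out a library gave 1113 to 2024 genes higher and 917 to 1926 lower, with 1181 higher and 1130 lower without untreated replicate 1, 1346 and 1125 without untreated replicate 2, and 1113 and 917 without untreated replicate 3. When totals were matched after leaving out mitochondrial genes and the top 20 genes, the fit gave 2391 higher and 1423 lower, 62.7% of calls higher against 52.0% as deposited (1937 and 1788), with a median fold of 0.06, against 0.02 as deposited. Of the hypoxia genes 3 were called with no filter and 3 with no trend, and 3 to 5 with a library left out; other propeptide genes gave 1 to 3 calls and other hydroxylases 1 to 2. The cause was not tested. Folds of low genes depended on the pseudocount: between pseudocounts of 5 and 0.1 they spanned 0.62 to 2.73 for Kdelr3, 0.49 to 2.67 for Fbn1, 1.17 to 2.18 for Ltbp1, 1.22 to 2.39 for Col4a3 and 0.20 to 1.23 for Egln3, and 0.66 to 0.83 for Plod1. Replicate numbers are not stated to pair the samples, so the main fit did not use them. Same-numbered samples correlated in their deviations from group means at 0.198, 0.153 and -0.038, the first being the highest of all pairs. Not every sample correlated best with its own number. With the block 1906 genes were higher and 1924 lower, and the Egln3 call was lost. Eno1 (adjusted p = 0.0360) and Jmjd6 (adjusted p = 0.0333) were called with it. With depth unknown, no limit from counting can be given for P4ha3.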
